A study of Mus musculus with 34 samples.

Results

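The HOX cluster genes are the homeobox genes that lie in the clusters HOXA, HOXB, HOXC and HOXD. They were taken here as every gene whose symbol is Hox followed by a cluster letter from a to d and a paralogue number from 1 to 13. By this rule 39 genes were found among the 46785 gene identifiers of the embryo tables, and 38 of them are described. The culture tables list these 38 genes under 39 identifiers, because Hoxa3 appears under a pair of them. The choice rests on names and not on measured values.

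HOX proteins are DNA-binding transcription factors that give cells their position along the head-to-tail axis. Genes with low paralogue numbers lie at one end of each cluster and are switched on first, at the posterior primitive streak during gastrulation, and those with higher numbers follow in order. WNT, FGF and retinoic acid signals and the CDX factors promote this activation, Polycomb complexes keep silent HOX genes off, and PBX and MEIS proteins bind DNA together with HOX proteins. The HOXA cluster has the homeobox gene Evx1 as a neighbour, and Evx1as is the long noncoding RNA transcribed from the opposite strand beside Evx1.

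The series asks about the role of Evx1as in the patterning of the mouse embryo. The cultures were 129S1/SVImJ embryonic stem cells kept 4 days without LIF, the factor that holds such cells undifferentiated: 3 libraries of the wild-type line CJ9 and 3 of the line 4x polyA KI. The sections were laser-captured from C57/B6 embryos at embryonic day 7 and are labelled Evx1as+/- (heterozygous) or Evx1as-/- (homozygous). They comprise 6 heterozygous streak sections (layers 1, 3, 5, 7, 9 and 11), 5 homozygous streak sections (layers 1, 5, 7, 9 and 11), 3 heterozygous mesoderm sections (layers 7, 9 and 11), 5 homozygous mesoderm sections (layers 3, 5, 7, 9 and 11) and 1 anterior epiblast library per genotype (layers 4 to 6). No section is labelled wild type, so the heterozygous controls carry the allele too. The labels do not say what the allele changes, whether the knock-in line is 1 clone, which way the layers are numbered or which embryo a section came from. Sections of 1 genotype may therefore share an embryo, and p-values over sections are too small in every comparison below.

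Values are FPKM, fragments scaled for the length of the transcript and the size of the library, so that levels can be compared between genes. In cultures Evx1as, listed as 5730457N03Rik, stood at 5.99, 5.84 and 3.94 FPKM in wild type and at 0.067, 0.137 and 0.080 FPKM in the knock-in line. In streak it ranged from 0 to 4.57 FPKM in heterozygous and from 0 to 0.159 FPKM in homozygous sections. A culture held 12758 to 13073 genes at 1 FPKM or more, and a section 6806 to 10959. The summed level of 7 streak markers, T among them, was 286 to 476 FPKM in heterozygous and 255 to 468 FPKM in homozygous streak, and 6.21 and 3.13 FPKM in the anterior libraries. Single markers differed within these similar sums. T stood at 133 to 297 FPKM in heterozygous and at 50.8 to 105 FPKM in homozygous streak. Fgf8 went the other way, with 1.26 to 10.9 FPKM and 13.1 to 37.6 FPKM. In mesoderm the 7 streak markers summed to 14.4 to 42.5 FPKM and 75.3 to 96.3 FPKM. The 8 mesoderm markers summed there to 37.5 to 144 FPKM and 39.5 to 163 FPKM. A further 3 sections carry a title and a cell type that contradict each other, and were left out of the comparisons. In these pieces of mixed tissue, fewer cells of a type and less RNA per cell cannot be told apart.

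Of the genes described, those that passed the test in at least 1 comparison were Hoxa3, Hoxb1, Hoxb2, Hoxb9, Hoxc13 and Hoxd1. RefSeq promoter sequences for the build GRCm38.p6 were matched for 22 of the 38 genes, and among the 6 that passed for Hoxb1, Hoxa3 and Hoxd1. Their 250 bases before the start are shown because these genes changed in different directions or in different material. The window of Hoxb1 is chr11:96365508-96365757 on the plus strand, that of Hoxa3 is chr6:52213068-52213317 on the minus strand and that of Hoxd1 is chr2:74762730-74762979 on the plus strand. Capitals mark a match to the HOX-PBX motif TGATNNAT, the kind of site that a HOX protein and a PBX protein bind together.
Hoxb1: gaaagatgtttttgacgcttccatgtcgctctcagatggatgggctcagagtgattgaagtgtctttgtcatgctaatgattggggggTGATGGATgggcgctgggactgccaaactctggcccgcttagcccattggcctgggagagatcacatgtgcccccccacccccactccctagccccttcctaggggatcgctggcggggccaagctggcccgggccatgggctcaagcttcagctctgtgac
Hoxa3: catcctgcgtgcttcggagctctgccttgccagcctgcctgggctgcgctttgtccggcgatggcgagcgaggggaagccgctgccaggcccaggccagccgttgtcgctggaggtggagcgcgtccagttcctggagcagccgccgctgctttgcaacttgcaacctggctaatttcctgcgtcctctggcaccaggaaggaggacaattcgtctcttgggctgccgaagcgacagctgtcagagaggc
Hoxd1: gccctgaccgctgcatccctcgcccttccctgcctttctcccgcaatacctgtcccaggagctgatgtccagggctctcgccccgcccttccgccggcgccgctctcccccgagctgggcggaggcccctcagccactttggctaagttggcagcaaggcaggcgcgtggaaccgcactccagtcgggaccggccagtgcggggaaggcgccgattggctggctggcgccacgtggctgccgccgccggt

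The match in the Hoxb1 promoter reads TGATGGAT and begins 162 bases before the start. Both strands were searched for TGATNNAT and for 4 further motifs: TTTATG (CDX), AGGTCA (retinoic acid receptor), CTTTGAA (TCF) and AGGTGT (T-box). No other match was found in these 3 promoters, searched together with the 50 bases after the start. TGATNNAT was present in 8.85% of the 32851 promoters of the same length in the RefSeq table. It was present in 4 of 24 HOX promoters, those of Hoxa2, Hoxb1, Hoxb8 and Hoxd11. The CDX motif was present in 5 of the 24 and in 11.9% of all promoters, and the retinoic acid receptor motif in 7 and 16.3%. For TCF these values were 2 and 5.14%, and for T-box 3 and 13.7%. A match describes the letters and does not show binding. CpG dinucleotides numbered 7 in the Hoxb1 window, 18 in the Hoxa3 window and 24 in the Hoxd1 window.

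The first comparison asks how the knock-in cultures differed from wild type. Hoxa3 and Hoxb9 fell, and Hoxc13 and Hoxd1 rose. These 4 were among the 5 HOX genes described that reached a mean of 1 FPKM over the 6 libraries, the level asked of a gene before it was tested. All 5 passed it through 1 line alone, the wild type for Hoxa3, Hoxb1 and Hoxb9 and the knock-in line for Hoxc13 and Hoxd1, so their number supports nothing by itself. Values were compared as log2(FPKM + 1) with limma, a linear model fitted to all 13133 genes that passed this level, and a gene was called at a p-value under 0.05 after Benjamini-Hochberg (BH) adjustment over all of them. Lower calls made up 16.2% and higher calls 16.2% of all genes tested, and groups without overlap were found for 24% (lower) and 24.4% (higher) of them, so a large share of genes differed in these cultures. The labels do not say whether the libraries of a line came from separate cultures, and the p-values measure only the spread between these libraries.

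Hoxa3, which acts in the pharyngeal arches and neck, had 3.42, 2.82 and 1.56 FPKM in wild type. In the knock-in line it was listed at 0 in 1 library and at 0.064 and 0.075 FPKM in the others. The groups did not overlap, and the difference was -1.75 (SE 0.25, limma with BH adjustment, adjusted p = 0.0022). The authors' deposited intervals did overlap between the lines. They ran from 1.87 to 4.97, 0 to 6.16 and 0.417 to 2.70 FPKM in wild type. In the knock-in line they began at 0 and ended at 0, 1.25 and 1.46 FPKM. In the positions of the culture tables, which match the build before mm10, Hoxa3 spans 52118509 to 52163335 on chromosome 6 and overlaps 8 other genes, Hoxa4, Hoxa5 and Hoxa6 among them. Whether the counting used strand is not stated, and reads of these genes could have been split or shared with it. The other Hoxa3 identifier stayed at or below 0.023 FPKM.

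Of the other 9 HOXA genes described, Hoxa5 alone reached 1 FPKM in a library. It had 0.428, 1.10 and 0.318 FPKM in wild type and 0.108, 0.110 and 0 FPKM in the knock-in line. With the level asked of a gene lowered to 0.1 FPKM its difference was -0.56 (limma, BH-adjusted p = 0.077), which is not past the threshold. Hoxa2 and Hoxa9 were also lower in every knock-in library than in every wild-type library, at or below 0.420 FPKM throughout. Groups without overlap made up 24% (lower) and 24.4% (higher) of all genes tested. Other low HOX genes went the other way without overlap, namely Hoxb4, Hoxc11, Hoxd4 and Hoxd13. Hoxa7 overlapped between the lines, with 0.229 to 0.669 FPKM in wild type and 0.301 to 0.416 FPKM in the knock-in line.

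The HOXA genes lie in a row beside Evx1as. In the culture tables the gap between gene and Evx1as was 47.5 kb for Hoxa13, 95.0 kb for Hoxa3 and 143 kb for Hoxa2. Among the 10 genes described the greatest difference was at Hoxa3 and the next at Hoxa5, 104 kb away, while Hoxa13 differed by -0.17 and Hoxa2 by -0.26. Hoxa13 had 0.135, 0.213 and 0.234 FPKM in wild type and 0, 0 and 0.192 FPKM in the knock-in line. Hoxa9, Hoxa10, Hoxa11 and Hoxa13 had wild-type means of at most 0.194 FPKM, so little could be lost there on this scale.

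**Figure D1:**
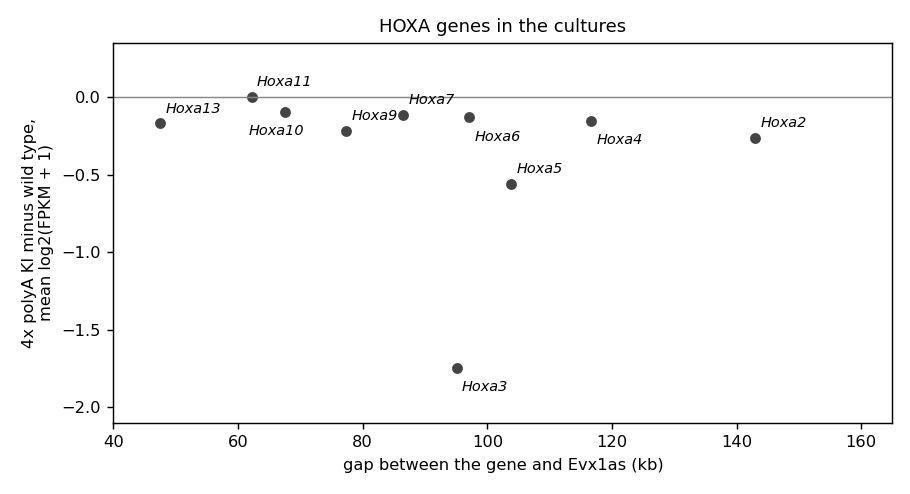
The difference of the knock-in line from wild type in mean log2(FPKM + 1), 3 libraries each, for the 10 HOXA genes described against the gap to Evx1as in kilobases. Hoxa3 at 95.0 kb lies at -1.75, and the other genes lie between -0.56 and 0.

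In HOXB, Hoxb9, a gene of the thoracic region of the trunk, had 3.63, 2.02 and 1.42 FPKM in wild type and 0.385, 1.06 and 0.729 FPKM in the knock-in line. The groups did not overlap, and the difference was -0.93 (SE 0.29, limma with BH adjustment, adjusted p = 0.0416). Hoxb1, which marks the posterior streak and later a single segment of the hindbrain, had 1.12, 2.41 and 3.74 FPKM in wild type and 0.771, 0.604 and 1.60 FPKM in the knock-in line. These values overlapped, and the difference of -0.74 was not past the threshold (limma, BH-adjusted p = 0.124). Hoxb2, the direct neighbour of Hoxb1, stayed between 0 and 0.388 FPKM in all 6 cultures. Hoxb3 ranged from 0.0072 to 1.21 FPKM, and the other HOXB genes did not reach 1 FPKM.

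In HOXC and HOXD the called genes went the other way. Hoxc13, a gene of the tail and of hair follicles, had 1.01, 0.530 and 0.307 FPKM in wild type and 1.70, 1.64 and 3.35 FPKM in the knock-in line. The difference was +0.98 (SE 0.28, limma with BH adjustment, adjusted p = 0.0295). Genes of chromosome 15, where Hoxc13 lies, had a median difference of +0.49 in these cultures, which is 0.48 above the median of all genes, and the part of this in the Hoxc13 value was not tested.

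Hoxd1 had 0.617, 0.716 and 0.664 FPKM in wild type and 1.85, 2.17 and 1.17 FPKM in the knock-in line, with no overlap. Its difference was +0.70 (SE 0.22, limma with BH adjustment, adjusted p = 0.0412). With the level lowered to 0.1 FPKM, 27 of the HOX genes described were tested, 2 were called lower and 4 higher, and 11.6% and 11.7% of all genes were called. The 2 added, Hoxd13 and Hoxd4, are HOXD genes that rose. Every wild-type value of Hoxd13 was under 0.1 FPKM, so it passed the lowered level through the knock-in line alone. Both genes had a mean under 1 FPKM, where with depth unknown a gene cannot be judged. Hoxd13, the last gene of its cluster and a gene of digits and the genital region, had 0.0665, 0 and 0.0608 FPKM in wild type and 0.401, 0.974 and 1.33 FPKM in the knock-in line (+0.84, limma with BH adjustment, adjusted p = 0.0228). Hoxd4 had 0.234, 0.407 and 0 FPKM against 0.950, 0.835 and 0.819 FPKM (+0.64, adjusted p = 0.0305). Hoxd9 went in the opposite direction in 2 wild-type libraries only, with 1.99, 2.17 and 0.209 FPKM against 0.092, 0.079 and 0.218 FPKM, and was not called (-0.999, adjusted p = 0.0825).

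**Figure D2:**
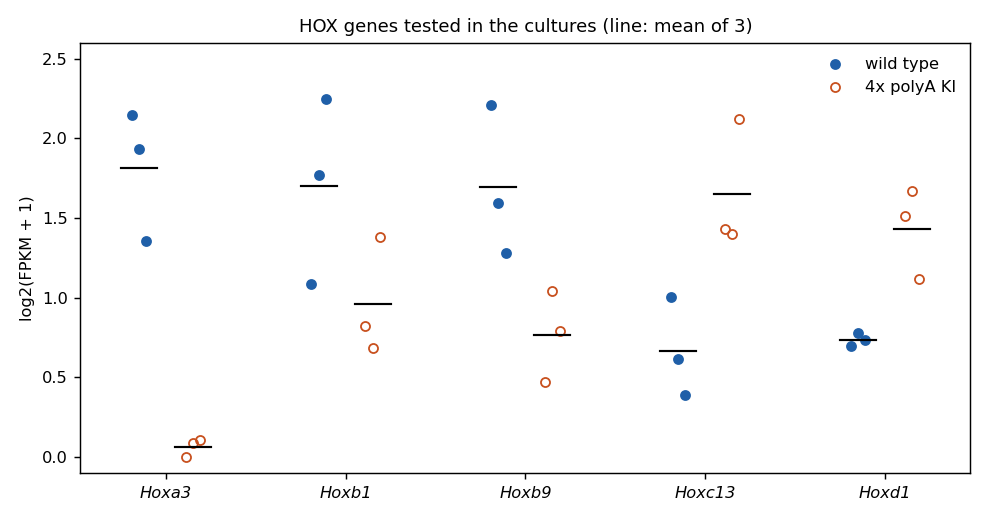
Values of log2(FPKM + 1) for the 5 HOX genes tested and described in the cultures, 1 point per library and a line at the mean of 3. Wild type and knock-in do not overlap except in Hoxb1, with Hoxa3 and Hoxb9 lower and Hoxc13 and Hoxd1 higher in the knock-in line.

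Of the 4 calls, that of Hoxa3 was kept most often when 1 library was left out. It was called in all 5 fits in which it passed the level asked, with adjusted p from 0.0023 to 0.0112 (limma with BH adjustment). Hoxb9 was called in 1 of the 6 fits (without wild-type culture 3), Hoxd1 in 1 (without knock-in culture 3) and Hoxc13 in 3 (without knock-in culture 1, knock-in culture 2 or wild-type culture 1). The number of HOX genes called fell from 4 to 2 without any 1 library but wild-type culture 2, and to 1 without that library. Hoxb1 was called without wild-type culture 1 (adjusted p = 0.0488). The lane numbers in the names of the deposited tables differ between libraries. In lane 3 alone, with 1 wild-type and 2 knock-in libraries and so no test of its own, the differences were -1.84 for Hoxa3, -0.68 for Hoxb9, +1.15 for Hoxc13 and +0.61 for Hoxd1.

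By cluster, the 10 HOXA genes described summed to 4.64 ± 1.42 FPKM (SD, n = 3) in wild type and 0.601 ± 0.124 FPKM (SD, n = 3) in the knock-in line. HOXB summed to 6.22 ± 0.576 FPKM and 3.54 ± 0.312 FPKM. HOXC summed to 2.76 ± 1.64 FPKM and 4.25 ± 1.38 FPKM, and HOXD to 3.06 ± 1.83 FPKM and 4.07 ± 0.285 FPKM. HOXA and HOXB sums did not overlap between the lines, whereas those of HOXC and HOXD did. Of single genes tested, 24% (lower) and 24.4% (higher) did not overlap either. Genes with a mean of 1 FPKM or more were 1 in HOXA (Hoxa3) and 2 in HOXB (Hoxb1 and Hoxb9). Of these Hoxb1 was not called, and Hoxb4, a low gene, was higher in every knock-in library. A lower sum is therefore not a loss of every gene in the cluster. Wild-type culture 3 stood apart in HOXC and HOXD, with sums of 0.875 and 0.938 FPKM.

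Genes that act on the clusters or beside them were followed by fixed lists. Of 6 tested regulators of HOX activation, 4 fell and 0 rose: Cdx1 (-3.29), Cdx2 (-3.87), T (-3.79) and Wnt3 (-2.23), each with an adjusted p of at most 0.00044 (limma with BH adjustment). Cdx2, a homeobox activator of trunk HOX genes, had 23.8, 25.1 and 9.82 FPKM in wild type and 0.177, 0.090 and 0.734 FPKM in the knock-in line. Among the 6 HOX cofactors tested and described, Meis2 fell (-2.45) and 0 rose. Of 7 retinoic acid genes, Cyp26a1, an enzyme that breaks retinoic acid down, fell (-2.74), while the receptor Rarg (+0.87) and the enzyme Dhrs3 (+0.69) rose. Of 12 Polycomb and trithorax genes 2 fell and 3 rose. Jarid2 (+1.25) and Ezh2 (+0.71), parts of the Polycomb complex that marks silent HOX genes, rose, and Mll1 (-0.88), which keeps active HOX genes on, fell. Also called were the Polycomb genes Bmi1, which fell, and Cbx7, which rose (-0.79 and +0.68 after scaling by the median ratio). Among all genes tested in the cultures, 16.2% were called lower and 16.2% higher. The median difference of all genes was +0.02, and scaling reversed no listed gene called.

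Beside the clusters, 5 of 13 tested neighbours fell and 1 rose, where 16.2% of all genes tested were called lower and 16.2% higher. At HOXA these were Evx1 (-3.65), Evx1as (-2.50), Skap2 (-1.39, BH-adjusted p = 0.0016, limma) and Hibadh beyond Evx1 (-0.98, adjusted p = 0.0046). Skap2 had 2.62, 2.64 and 2.39 FPKM in wild type and 0.377, 0.256 and 0.447 FPKM in the knock-in line. The HOXB neighbour Calcoco2 fell (-1.13, adjusted p = 0.0488) and the HOXC neighbour Cbx5 rose (+0.43, adjusted p = 0.0351). In these cultures the median difference was -0.17 for genes of chromosome 6 (HOXA), +0.05 for chromosome 11 (HOXB) and +0.49 for chromosome 15 (HOXC). The part of these medians in the values of the neighbours was not tested.

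The cultures also differed in markers of cell state. The sum of 7 streak markers was 451 to 665 FPKM in wild type and 103 to 141 FPKM in the knock-in line. That of 8 mesoderm markers was 62.8 to 111 FPKM and 39.4 to 54.7 FPKM, with 1 of the 8 at 0 in the knock-in line. Epiblast markers (6) summed to 555 to 728 FPKM and 1416 to 1625 FPKM. The sum of 5 naive stem cell markers was 52.4 to 89.0 FPKM and 172 to 214 FPKM, and that of 4 markers of extraembryonic mesoderm was 132 to 187 FPKM and 24.9 to 37.1 FPKM. Their part in the HOX differences was not tested.

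In the embryo sections fewer HOX genes were seen. Of the 38 genes, 12 were listed at 0 in all 24 sections: Hoxa4, Hoxa6, Hoxa11, Hoxb5, Hoxb6, Hoxb7, Hoxb8, Hoxc4, Hoxc5, Hoxc12, Hoxd8 and Hoxd11. Another 11 reached 1 FPKM in at least 1 section, and 2, Hoxb1 and Hoxb2, reached 5 FPKM. Of 15 genes with paralogue numbers 4 to 8, 9 were at 0 in every section, against 0 of 7 described with numbers 1 to 3 and 3 of 16 with numbers 9 to 13. Of the 16 genes with numbers 9 to 13, 6 reached 1 FPKM in a section. The 8 housekeeping genes checked were at 0 in no section. Sequencing depth is unknown, so a value of 0 shows only that the gene was not detectable in that library.

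**Figure D3:**
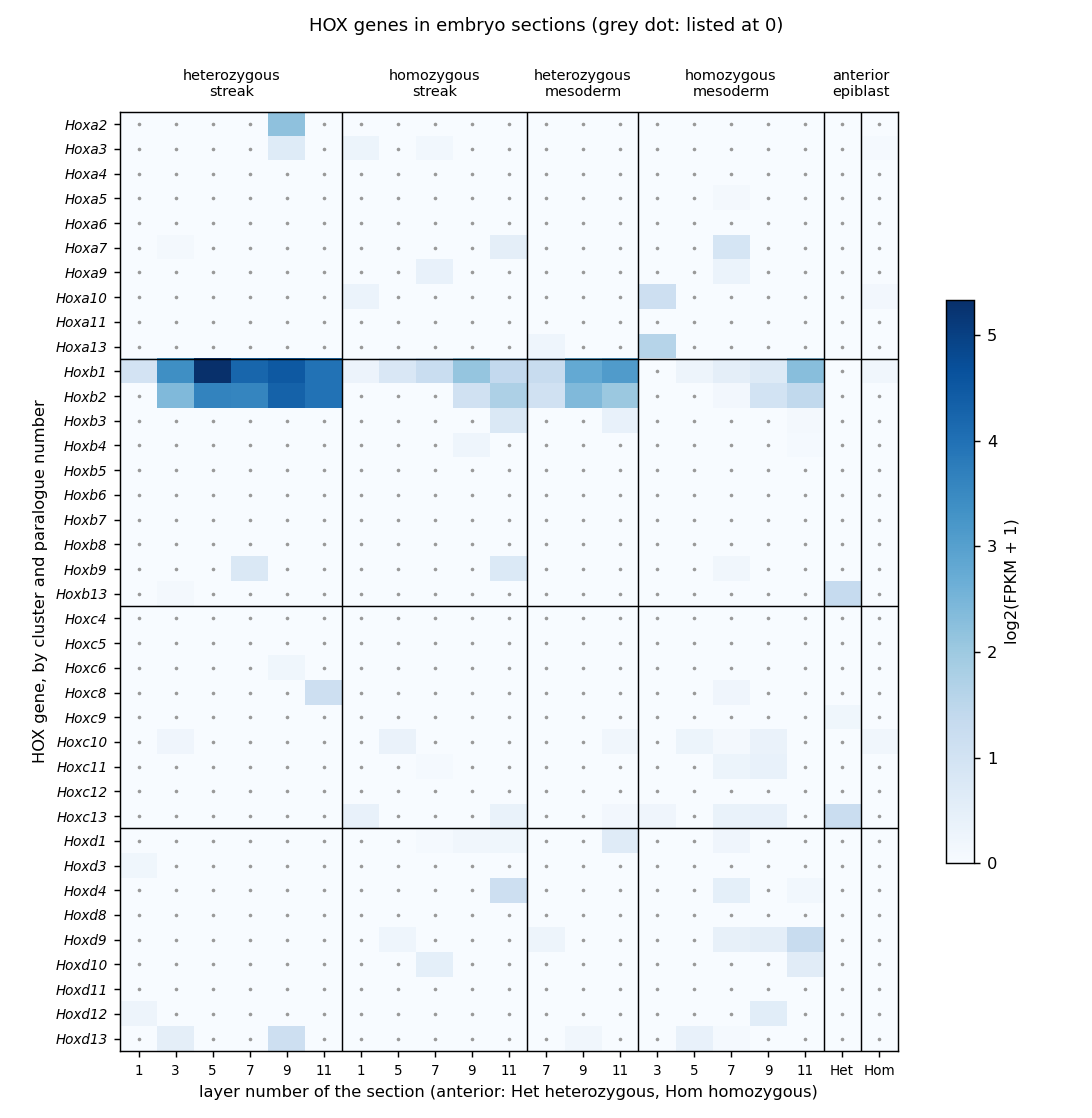
Level of each of the 38 HOX genes described as log2(FPKM + 1) in the streak, mesoderm and anterior epiblast sections, by layer, with a grey dot where a gene is listed at 0. Hoxb1 and Hoxb2 form a dark band across the heterozygous streak, and most other cells of the plot are at or near 0.

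Summed over the 38 genes, the heterozygous streak held 1.28 to 50.8 FPKM (median 29.8, n = 6) and the homozygous streak 1.03 to 7.44 FPKM (median 2.32, n = 5). Heterozygous mesoderm held 2.84 to 11.7 FPKM (n = 3) and homozygous mesoderm 0.760 to 7.75 FPKM (n = 5). Hoxb1 and Hoxb2 together made up 74.0% to 100% of this sum in each heterozygous streak section. The share was 23.1% to 93.4% in homozygous streak and 0% to 71.7% in homozygous mesoderm. The number of these genes above 0 was 2 to 6 per section in heterozygous and 3 to 8 in homozygous streak.

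**Figure D4:**
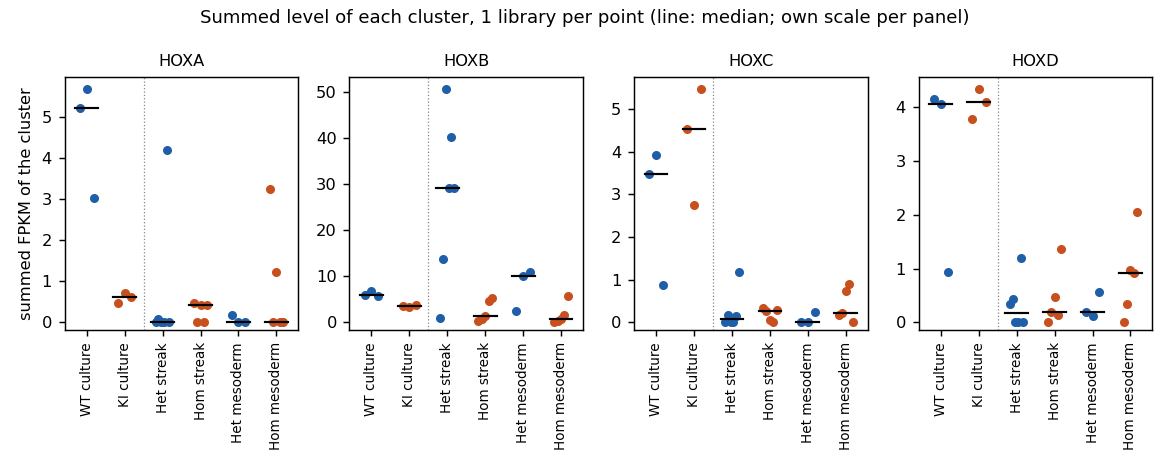
Summed FPKM of the HOXA, HOXB, HOXC and HOXD genes described in each library of the cultures, streak and mesoderm, with a line at the median and a separate scale per panel. HOXA is highest in wild-type cultures (median 5.20 FPKM) and HOXB in heterozygous streak (median 29.2 FPKM), and tables of cultures and sections were normalised separately.

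Hoxb1 was the most abundant HOX gene of the embryo sections. In mm10 it lies on chromosome 11 from 96365752 to 96368256 and overlaps no other gene of the tables. In heterozygous streak it stood at 0.950 FPKM in layer 1, 9.50 in layer 3, 39.4 in layer 5, 17.6 in layer 7, 21.5 in layer 9 and 14.6 in layer 11. In homozygous streak it stood at 0.238 FPKM in layer 1, 0.745 in layer 5, 1.36 in layer 7, 3.35 in layer 9 and 1.63 in layer 11. The groups overlapped through the heterozygous section of layer 1 alone, and the other 5 heterozygous sections lay above every homozygous one. At equal layer the heterozygous value was higher in 5 of 5 pairs, by 3.99-fold in layer 1 and 53.0-fold in layer 5. In layer 5 the intervals of the authors' deposited table ran from 35.6 to 43.3 FPKM and from 0.313 to 1.18 FPKM. In layer 1 they overlapped, with 0.400 to 1.50 FPKM and 0 to 0.514 FPKM.

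Hoxb2, which is expressed in the hindbrain and in early mesoderm, lies beside Hoxb1 on chromosome 11 from 96351631 to 96354012. In heterozygous streak it was at 0 in layer 1, 4.24 FPKM in layer 3, 11.3 in layer 5, 10.9 in layer 7, 18.8 in layer 9 and 14.6 in layer 11. In homozygous streak it was at 0 in layers 1, 5 and 7, at 1.07 FPKM in layer 9 and at 2.35 in layer 11. All heterozygous sections but that of layer 1 lay above all homozygous ones, and 4 of 5 pairs of equal layer were lower in homozygous streak, the pair of layer 1 being at 0 in both. Hoxb2 overlaps the transcript Hoxb3os, which stood at or below 0.833 FPKM in every section.

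**Figure D5:**
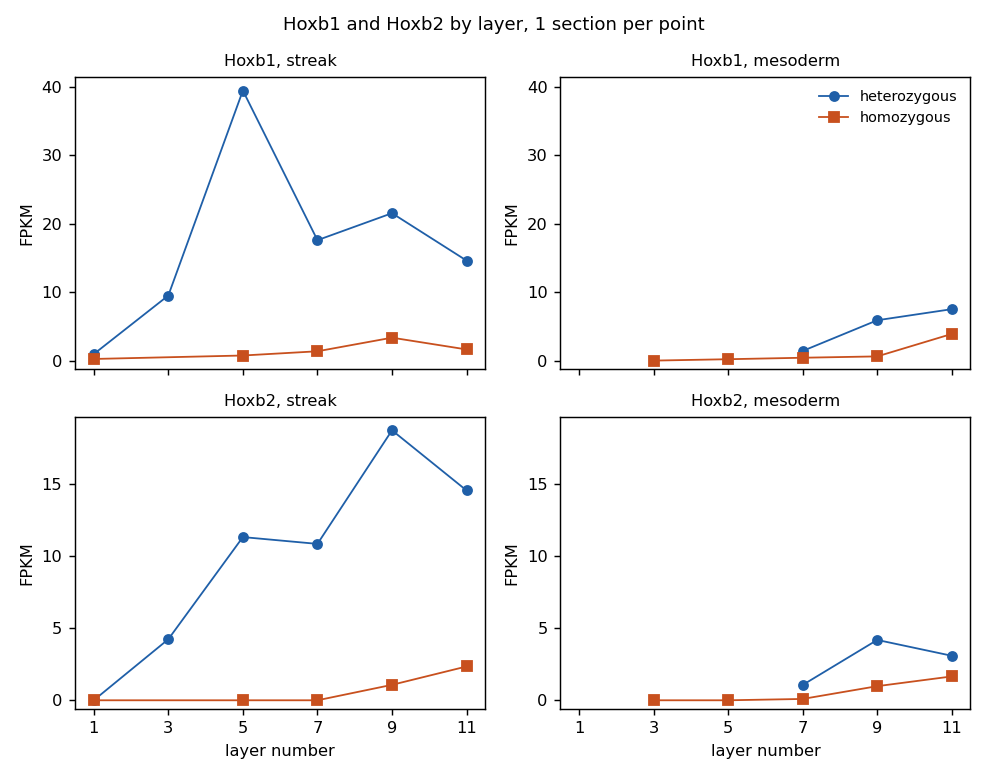
FPKM of Hoxb1 and Hoxb2 by layer number in streak and mesoderm, 1 section per point, with heterozygous sections as circles and homozygous ones as squares. Heterozygous streak sections of layer 3 and above carry Hoxb1 at 9.50 to 39.4 FPKM, and no homozygous streak section is above 3.35 FPKM.

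The comparison of genotypes in streak was fitted with layer as a number over 11 sections. Hoxb1 and Hoxb2 were the 2 HOX genes whose mean reached 1 FPKM. Hoxb2 passed this level through the heterozygous sections alone, since its homozygous mean was 0.685 FPKM, while that of Hoxb1 was 1.46 FPKM. Hoxb1 differed by -2.67 (SE 0.50, limma, BH-adjusted p = 0.160) and Hoxb2 by -2.58 (SE 0.44, limma, BH-adjusted p = 0.0925). Neither passed the threshold, although both had an unadjusted p under 0.05. Among all 9932 genes 0.0201% were called lower and 0% higher. The median difference of all genes was +0.25, above 0.1. After scaling each library by its median ratio, the differences were -2.87 and -2.75, with adjusted p of 0.0450 and 0.0369 (limma with BH adjustment). With this scaling 0.0821% of genes were called lower, among them also T (-2.01, adjusted p = 0.0012) and Crabp2 (-1.91, adjusted p = 0.0396). Hoxb1 and Hoxb2 were also called without the heterozygous section of layer 1 (0.0058 and 0.0023, with 0.0412% of genes called lower). The same held without layer 1 of both genotypes (0.0388 and 0.0084, with 0.0421%).

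In mesoderm the levels were lower in both genotypes. Hoxb1 stood at 1.41, 5.89 and 7.51 FPKM in heterozygous layers 7, 9 and 11. In homozygous mesoderm it was at 0, 0.202, 0.419, 0.614 and 3.90 FPKM in layers 3, 5, 7, 9 and 11. Hoxb2 stood at 1.07, 4.20 and 3.09 FPKM in heterozygous and at 0, 0, 0.093, 0.982 and 1.66 FPKM in homozygous sections of the same layers. Both genes were lower in homozygous mesoderm in 3 of 3 pairs of equal layer, and the groups overlapped through the homozygous section of layer 11.

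With layer in the fit over these 8 sections, Hoxb1 differed by -1.06 (SE 0.43, limma with BH adjustment, adjusted p = 0.278) and Hoxb2 by -0.91 (SE 0.43, adjusted p = 0.336). Neither was called, 1 of the 2 had an unadjusted p under 0.05, and of the 8695 genes tested 0% were called lower and 0.196% higher.

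Over all 19 sections of streak and mesoderm, with region and layer in the fit, both tested HOX genes were lower in homozygous sections. Hoxb2 entered the test through the heterozygous sections alone, with homozygous means of 0.685 FPKM in streak and 0.547 FPKM in mesoderm. Lower calls made up 0.115% and higher calls 1.13% of the 9527 genes tested, 11 and 108 genes. After scaling by the median ratio these became 68 and 94 genes. The differences were -2.09 for Hoxb1 (SE 0.38, limma with BH adjustment, adjusted p = 0.0090) and -1.86 for Hoxb2 (SE 0.35, adjusted p = 0.0104). After scaling, with which the median difference of all genes was +0.04 in place of +0.24, they were -2.29 and -2.01. All 19 carry the same lane number in the names of the deposited tables. With layer as a replicate block, which uses 16 sections, Hoxb1 was called (adjusted p = 0.0462) and Hoxb2 was not (0.0595), with 0.0417% of genes called lower.

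Whether the difference between genotypes was itself different in mesoderm was tested by an interaction over the 19 sections. The estimate was +1.50 for Hoxb1 (SE 0.73, limma, BH-adjusted p = 0.999) and +1.77 for Hoxb2 (SE 0.63, adjusted p = 0.999), that is, a smaller loss in mesoderm. Heterozygous means of Hoxb1 and Hoxb2 were 4.94 and 2.78 FPKM in mesoderm and 17.3 and 9.97 FPKM in streak. Less could therefore be lost in mesoderm on this scale. Neither passed, 1 of the 2 had an unadjusted p under 0.05, and 0% of all genes were called in either direction. The unequal sizes of loss in the regions are therefore not shown to differ. In simulated data this fit recovered 12 of 100 planted differences of 2 in log2, so it does not show that they are equal either.

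Regions were compared within pairs of equal genotype and layer, 3 heterozygous and 4 homozygous. In heterozygous pairs Hoxb1 was lower in mesoderm in 3 of 3, by 12.5-fold in layer 7, 3.65-fold in layer 9 and 1.94-fold in layer 11. In homozygous pairs it was lower in 3 of 4, by 3.25-fold to 5.45-fold, and higher in layer 11, with 3.90 FPKM in mesoderm and 1.63 FPKM in streak. Hoxb2 was lower in mesoderm in 3 of 3 heterozygous pairs, by 4.47-fold to 10.2-fold. In homozygous pairs it was lower in 2 of 4, higher in 1 and at 0 on both sides in 1.

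The mean difference of mesoderm from streak was -1.05 for Hoxb1 (SE 0.37, limma with BH adjustment, adjusted p = 0.0944) and -0.95 for Hoxb2 (SE 0.37, adjusted p = 0.117). Neither was called, both with an unadjusted p under 0.05, while 8.04% of the 9146 genes tested were called lower and 0.579% higher in mesoderm. The median difference of all genes was -0.34, and after scaling the values were -0.73 for both, with 28 genes called lower and 35 higher in place of 735 and 53. Without the homozygous pair of layer 11, Hoxb1 was called (-1.37, adjusted p = 0.0486, with 3.59% of genes called lower). All 6 tested regulators of HOX activation were lower in mesoderm and passed the test: T (-3.54), Wnt3a (-2.11), Wnt3 (-2.04), Cdx1 (-1.98), Cdx2 (-1.82) and Fgf8 (-1.35). After scaling all 6 were still lower, and T (-3.11) and Wnt3a (-1.86) passed.

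Along the streak, the coefficient per layer number was +0.20 for Hoxb1 (SE 0.07, limma with BH adjustment, adjusted p = 0.212) and +0.28 for Hoxb2 (SE 0.06, adjusted p = 0.0983). Both had an unadjusted p under 0.05, neither passed, and 0.0101% of genes were called as rising and 0.0705% as falling with layer. Without the heterozygous section of layer 1 the coefficients were +0.09 and +0.18, and without layer 1 of both genotypes +0.05 and +0.23. Hoxb1 in heterozygous streak was highest in layer 5 and Hoxb2 in layer 9, and in homozygous streak these maxima were in layers 9 and 11. Slopes of the genotypes did not differ past the threshold (-0.10 for Hoxb1 and -0.19 for Hoxb2, adjusted p = 0.931 and 0.838), with 0% of genes called and neither HOX gene at an unadjusted p under 0.05. Without layer 1 both differences turned positive, +0.12 for each gene (adjusted p = 0.994). In simulated data the slope comparison over all layers recovered 0 of 100 planted differences of 2 in log2 over the range of layers. It therefore could not decide whether the slopes differ. In mesoderm the coefficients were +0.28 (adjusted p = 0.737) and +0.20 (adjusted p = 0.968), against 0.0115% of genes called as rising. The mesoderm trend fit likewise recovered 0 of 100 planted changes of that size and cannot decide.

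In the anterior epiblast, with 1 library per genotype and no test, HOX genes were low. Hoxb1 stood at 0 FPKM in the heterozygous and 0.124 FPKM in the homozygous library, and Hoxb2 and Hoxa2 at 0 in both. Hoxb13 and Hoxc13, posterior genes, stood at 1.51 and 1.34 FPKM in the heterozygous library and at 0 in the homozygous one. Mesoderm markers summed to 3.20 and 0.749 FPKM there and epiblast markers to 131 and 285 FPKM.

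Of the other HOX genes described, several appeared in single sections. Hoxa2, a gene of the hindbrain, was at 3.62 FPKM in heterozygous streak layer 9 and at 0 in the other 23 sections. Hoxa3 reached 0.575 FPKM in that same section. In homozygous mesoderm layer 3, Hoxa13 stood at 2.04 FPKM and Hoxa10 at 1.21 FPKM, while Hoxb1 and Hoxb2 were at 0. Hoxd9 reached 1.43 FPKM in homozygous mesoderm layer 11. The genes called in cultures were low in sections: Hoxb9 reached 0.712 FPKM, Hoxd1 0.559 FPKM and Hoxc13 0.330 FPKM in streak or mesoderm.

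Across the 19 sections, the log2 values of Hoxb1 and Hoxb2 had a Pearson correlation of 0.94. With other listed genes the correlation of Hoxb1 was 0.76 for Cdx1, 0.70 for Crabp2, 0.69 for Wnt3a, 0.64 for Evx1, 0.57 for T and 0.46 for Cdx2. These are descriptions across sections that share genotype, region and lane. From 9527 genes compared, predicted genes, pseudogenes and genes with clone names were left out of a ranking. Of the rest, the 5 outside the clusters most like the summed level of Hoxb1 to Hoxb9 were Dock11 (0.81), Srrm2 (0.79), Nkx1-2 (0.79), Slc39a1 (0.79) and Magi1 (0.78). Nkx1-2, a homeobox gene of the posterior epiblast and streak, stood at 2.37 to 14.1 FPKM in heterozygous streak and at 0 to 2.82 FPKM in homozygous streak.

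The listed regulators did not move together between the genotypes of the 19 sections. Of 6 tested, T fell (-1.22, limma with BH adjustment, adjusted p = 0.0299), and Fgf8 (+1.88, adjusted p = 0.0040) and Wnt3 (+1.33, adjusted p = 0.0461) rose. After scaling T and Fgf8 passed in the same directions and Wnt3 did not (+1.12, adjusted p = 0.0792). Cdx1 differed by -0.70 (adjusted p = 0.269) and Cdx2 by -0.15 (adjusted p = 0.830), so neither passed. Cdx1 stood at 0.678 to 15.1 FPKM in heterozygous and at 0.835 to 4.94 FPKM in homozygous streak. Of 4 retinoic acid genes 1 fell, Crabp2 (-1.40, adjusted p = 0.0317), a binding protein that carries retinoic acid to its receptors. Aldh1a2, the enzyme that makes retinoic acid, was at or below 1.07 FPKM in all sections. Of 5 cofactors, 12 Polycomb and trithorax genes and 9 tested cluster neighbours 0 passed, Evx1 among those tested (-0.14, limma with BH adjustment, adjusted p = 0.814). Among all genes tested in these sections 0.115% were called lower and 1.13% higher. At such shares 0 calls in these lists do not show that their genes were unchanged.

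No marker of another cell type that was tested passed between genotypes in streak, where 0.0201% of all genes were called lower and 0% higher. With so few calls, this does not show that the cell types were equal. Median differences there were +1.23 for the 5 epiblast markers tested and +0.18 for the 5 mesoderm markers, against +0.25 for all genes. Over the 19 sections, 3 of 6 epiblast markers and the 1 naive stem cell marker tested were called higher in homozygous sections. Of all genes tested there, 1.13% were called higher and 0.115% lower. Epiblast markers (6) summed to 40.6 to 114 FPKM in heterozygous and 122 to 258 FPKM in homozygous streak, and naive stem cell markers (5) to 1.13 to 18.3 FPKM and 6.89 to 20.3 FPKM. Visceral endoderm markers (7) ranged from 0.516 to 25.1 FPKM and from 0.186 to 534 FPKM, and extraembryonic ectoderm markers (5) from 1.91 to 42.4 FPKM and from 0.883 to 40.8 FPKM, with 2 and 1 of them at 0 throughout. Extraembryonic mesoderm markers (4) stayed at or below 1.42 FPKM in streak. Their part in the lower level of Hoxb1 and Hoxb2 was not tested.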

How the data were processed

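RNA was measured in 34 samples, and tables for 30 of them were used: 6 cultures and 24 embryo sections. The other 4, posterior embryo pieces, were not analysed here. The authors deposited 1 table per library with FPKM and an interval for each gene, per the file headers. CASAVA, TopHat2 2.0.11 and mm10 are named in the submitters' processing notes. The tool that made the FPKM, its version and its use of strand are not given in the sources used here. The tables hold no counts, so depth is unknown and no counting interval or floor was computed.

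Repeated entries of 1 identifier were added, and values under 1e-06 FPKM were set to 0. Culture tables carry positions of the build before mm10, and no position was converted. Values were analysed as log2(FPKM + 1), so a fold change of a low gene is understated, and a gene was tested where its mean over the compared libraries reached 1 FPKM. limma 3.58.1 in R 4.3.3 was fitted to the whole table with the prior variance following the mean, 2-sided tests, BH adjustment over all genes and a threshold of 0.05. Layer entered as a number, and regions were compared within pairs of genotype and layer. The script was tested on simulated data.

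A member of the HOX clusters and a cofactor are not reported here, although the fits used the whole tables. The members and lists were chosen with earlier results of these data known. Values in every library are given for HOX genes past the threshold in a comparison or with a group mean of 5 FPKM, and others by range, with single sections or low genes named after their values were seen. Replicate numbers of the cultures did not pair the libraries: the correlations of same-numbered libraries were -0.117, -0.053 and -0.051. Alternatives were a pseudocount of 0.1, a level of 0.1 FPKM, scaling by the median ratio, the replicate block, adding the 3 sections with conflicting labels, and leaving out libraries, pairs or layer 1.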

Additional observations from a re-analysis of the deposited data

Results flagged for a closer look

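Single sections stood far from the rest of their group in 7 of the 13 sets of a HOX gene and a group that were tested. In 5 of the 7 all other sections were at 0, which fixes this outcome, so the rate of about 1 in 20 that chance gives does not apply to them. In heterozygous streak these were Hoxa2 at 3.62 FPKM and Hoxd13 at 1.20 FPKM, both in layer 9, and Hoxc8 at 1.19 FPKM in layer 11. The next value was 0.428 FPKM for Hoxd13 and 0 for the other genes. In homozygous streak Hoxd4 stood at 1.20 FPKM in layer 11, with all other sections at 0. In homozygous mesoderm Hoxa10 stood at 1.21 FPKM and Hoxa13 at 2.04 FPKM in layer 3, with 0 in the other sections. Hoxb1 stood at 3.90 FPKM in layer 11, where the next section had 0.614 FPKM.

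The sections whose title and cell type label name different regions were outside all main comparisons. In 1 of them, a heterozygous section titled as mesoderm layer 3 and labelled as streak, Hoxb1 stood at 3.57 FPKM and Hoxb2 at 1.34 FPKM. Both genes were at 0 in the heterozygous anterior epiblast library.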

How the results depend on the processing

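In the cultures the count of 4 HOX genes called fell to 1 with replicate number as a replicate block, in which Hoxa3 remained (adjusted p = 0.0098, limma with BH adjustment), and to 1 to 2 when 1 library was left out. The other settings kept 4 or added the low genes Hoxd4 and Hoxd13. In streak the 0 calls between genotypes became 2 after scaling by the median ratio, 2 without layer 1, 1 with the conflicting sections added by title, and 0 to 2 when 1 section was left out (2 without heterozygous layer 1 alone). Over all sections the 2 calls became 1 with layer as a replicate block, and stayed 2 in each fit that left out 1 section. Between regions the 0 calls became 0 to 1 when a pair was left out. In mesoderm, the layer trends and the interactions, 0 HOX genes were called under every setting run. Of 247 results for single HOX genes under alternatives, 219 kept direction and side of the threshold, 9 passed in addition, 17 no longer passed and 2 reversed. These 2 were the differences in slope between genotypes in streak, which went from -0.10 to +0.12 for Hoxb1 and from -0.19 to +0.12 for Hoxb2 without layer 1. Over all genes, scaling changed the calls from 2 lower to 8 lower in streak, from 11 lower and 108 higher to 68 and 94 over all sections, and from 735 lower and 53 higher to 28 and 35 between regions. The causes were not tested. Same-layer streak sections correlated by 0.470 in layer 1 and by 0.034 to 0.069 in the other layers, and mesoderm sections by 0.018 to 0.057. Layer 1 of streak alone reached 0.1, so layer paired the sections there and not elsewhere. With depth unknown, genes under 1 FPKM cannot be judged.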

Other observations

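The other sections with conflicting labels held less of these genes. The second heterozygous one, titled as mesoderm layer 7, had Hoxb1 at 0.441 FPKM and Hoxb2 at 0.290 FPKM, and the homozygous one, titled as streak layer 3, had both at 0. Streak markers summed to 22.6 and 31.9 FPKM in the heterozygous pair and to 379 FPKM in the homozygous section. They carry other lane numbers than the remaining sections.

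Noncoding transcripts of the HOX clusters were low in the sections. Haglr, a transcript of the HOXD cluster, stood at 1.27 and 2.38 FPKM in homozygous streak layers 9 and 11 and at or below 0.616 FPKM in the other sections. Hotair, from the HOXC cluster, reached 0.922 FPKM in homozygous mesoderm layer 11, and Hottip, beside Hoxa13, reached 0.883 FPKM in heterozygous mesoderm layer 7. Hoxb3os stood at or below 0.833 FPKM throughout.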
